A study of Mus musculus with 6 samples.

Results

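A set of 10 genes of cytotoxic lymphocytes and natural killer (NK) cells were followed in liver tumors of mice with and without hepatic Prmt3. The genes are Gzma, Gzmb, Prf1, Nkg7, Klrb1c, Klrk1, Klrd1, Ncr1, Ifng and Fasl. These 10 genes were chosen by name among the 34745 genes of the expression table, and each had 1 row there. Of the 10 genes, 8 had enough counts for a test across all genes. Ncr1 and Ifng did not, and their counts are given as they stand.

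NK cells and cytotoxic T cells kill a target cell by releasing granules. Perforin, made from Prf1, opens the way into the target, and granzymes such as those of Gzma and Gzmb cut proteins inside it until the cell dies. A second route runs through Fas ligand on the killer cell and the receptor Fas on the target. NK cells read their targets through activating and inhibitory receptors, many of them encoded side by side in the NK gene complex on mouse chromosome 6. The liver is rich in NK cells, and CD8+ T cells share most of the same granule genes.

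RNA-seq was done on 3 liver tumors of Prmt3f/f mice (replicates 7, 66 and 71) and 3 of Prmt3LKO mice (replicates 92, 93 and 94). Both groups carried floxed Prmt3 alleles, and the Prmt3LKO mice also carried Cre under the albumin promoter, which acts in hepatocytes and not in lymphocytes. The sample labels shorten the genotypes to WT and KO. All mice received diethylnitrosamine (DEN, 25 mg/kg) at 2 weeks of age. From 6 weeks they received 10% carbon tetrachloride (CCl4, 0.5 ml/kg) repeatedly, and they were killed at 26 weeks. The labels do not say whether the tumors of a group came from separate mice, so every p-value measures the spread between these tumors.

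Total counts ran from 18440244 to 27976598 per tumor. Prmt3 itself was at 8.41 ± 1.78 CPM (counts scaled to a common library size; SD, n = 3) in Prmt3f/f tumors and at 2.88 ± 0.897 CPM in Prmt3LKO tumors, with no overlap between the groups. Its log2 fold change was -1.55 (SE 0.29), with an adjusted p of 0.592 by edgeR and 0.00357 by DESeq2. The edgeR test thus did not call even the deleted gene, so a gene not called may still have changed. Albumin, the main secreted protein of hepatocytes, took 11% to 16.1% of the counts of a tumor. The 12 hepatocyte markers overlapped between the groups in every case. Kidney markers, which a liver tumor should lack, summed to 2.95 to 4.20 CPM in Prmt3f/f tumors and to 8.64 to 12.4 CPM in Prmt3LKO tumors, and their part in the results was not tested.

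The granule genes Prf1 and Nkg7 lay lower in every Prmt3LKO tumor than in every Prmt3f/f tumor, and the other 8 genes overlapped between the groups. Of all genes tested, 6.59% were lower and 5.57% higher in every Prmt3LKO tumor. None of the 8 genes tested passed an adjusted p under 0.05 by edgeR or DESeq2. The median log2 fold change was -0.80 over 20 genes that white blood cells share (pan-leukocyte genes) and -1.07 over 16 T cell markers, again with no gene past the adjusted limit by edgeR. Relative to the pan-leukocyte genes, though not to the T cell markers, the NK receptor gene Klrk1 was higher in every Prmt3LKO tumor, as were 55.4% of all genes tested. In bulk tumors, fewer cells of a type and less RNA per cell cannot be told apart.

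The results turn on the granule genes Gzmb, Prf1 and Nkg7 and on Klrk1, so their promoters are shown. Each runs from 250 bases before to 50 bases after the start of the gene in RefSeq. For Gzmb and Nkg7 that start differs from the gene coordinates given below, which come from the expression table. The sequences are those of RefSeq on GRCm38.p6, read 5′ to 3′ on the strand of the gene. Capitals mark matches, on either strand, to the letters GGTGTG (T-box), TGTGGT (RUNX), TTCNNNGAA (STAT) or GGAAGT (ETS), which are short forms of sites bound by families of lymphocyte transcription factors. A match on the other strand reads as the reverse complement.
Gzmb, chr14:56262285-56262584, minus strand: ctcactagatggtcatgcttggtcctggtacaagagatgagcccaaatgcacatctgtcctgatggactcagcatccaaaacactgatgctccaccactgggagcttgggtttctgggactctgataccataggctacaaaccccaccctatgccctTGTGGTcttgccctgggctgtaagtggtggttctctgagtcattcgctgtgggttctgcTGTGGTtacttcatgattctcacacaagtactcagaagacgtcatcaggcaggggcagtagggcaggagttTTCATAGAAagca
Prf1, chr10:61297586-61297885, plus strand: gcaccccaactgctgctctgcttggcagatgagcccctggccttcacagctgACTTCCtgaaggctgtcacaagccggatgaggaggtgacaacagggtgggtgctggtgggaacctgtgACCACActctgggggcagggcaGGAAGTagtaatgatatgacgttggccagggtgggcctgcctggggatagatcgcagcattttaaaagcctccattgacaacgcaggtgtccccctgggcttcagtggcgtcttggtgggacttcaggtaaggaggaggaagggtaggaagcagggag
Nkg7, chr7:43436888-43437187, plus strand: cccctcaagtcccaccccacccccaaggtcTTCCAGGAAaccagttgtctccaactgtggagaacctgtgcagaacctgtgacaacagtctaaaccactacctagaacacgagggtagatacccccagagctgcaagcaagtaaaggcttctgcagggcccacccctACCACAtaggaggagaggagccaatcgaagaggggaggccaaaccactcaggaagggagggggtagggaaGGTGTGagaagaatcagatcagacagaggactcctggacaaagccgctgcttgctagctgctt
Klrk1, chr6:129623815-129624114, minus strand: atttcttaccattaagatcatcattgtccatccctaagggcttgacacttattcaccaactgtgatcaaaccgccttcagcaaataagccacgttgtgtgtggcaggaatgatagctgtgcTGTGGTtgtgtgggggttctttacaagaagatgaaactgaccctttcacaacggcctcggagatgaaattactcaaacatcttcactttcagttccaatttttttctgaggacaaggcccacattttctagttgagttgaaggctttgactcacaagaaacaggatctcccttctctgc

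RefSeq gave promoters for 9 of the 10 genes, all but Klrd1, and no matches of different motifs overlapped. The RUNX letters were in 7 of these 9 genes, against 16.8% of all 32851 promoters of the same length. In Gzmb they stood in 2 places, at -93 to -88 and -34 to -29 relative to the start of the gene in RefSeq. In Prf1, Nkg7 and Klrk1 they stood once, at -130 to -125, -83 to -78 and -129 to -124. Gzma, Klrb1c and Ncr1 also held them, and Ifng and Fasl did not. Among other genes with a promoter entry, the letters were in 1 of 8 T cell markers, 5 of 15 pan-leukocyte genes and 1 of 9 hepatocyte markers. The STAT letters were in 3 of the 9 genes (Gzmb, Nkg7 and Ifng; 8.3% of all promoters), the ETS letters in 3 (Prf1, Klrb1c and Fasl; 23.8%) and the T-box letters in 2 (Nkg7 and Fasl; 19%). A match is a description of the letters, and binding was not measured. Runx3, which encodes a RUNX factor of cytotoxic lymphocytes, was at 2.54, 1.31 and 2.04 CPM in Prmt3f/f tumors and at 1.54, 2.30 and 1.36 CPM in Prmt3LKO tumors. These values overlapped between the groups. Runx3 was named after its values were seen.

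All 10 genes were weakly expressed. On the length-corrected scale (FPKM), the means over 6 tumors were in the order Nkg7 (1.82), Gzmb (1.65), Gzma (1.22), Klrd1 (0.415), Prf1 (0.304), Klrk1 (0.279), Fasl (0.244), Klrb1c (0.200), Ncr1 (0.140) and Ifng (0.137). The ranges over the 6 tumors overlapped for every pair of neighbors in this order. Of the 20277 genes with any count, 60.7% had a lower mean FPKM than Nkg7 and 30.3% a lower one than Ifng. Klrk1 drew more counts than its FPKM shows at first sight, since its FPKM is divided by a length of 9121 bases, against 878 bases for Gzma. A single count was worth 0.0351 to 0.0571 CPM, so counting error alone is large for most of these genes.

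**Figure D1:**
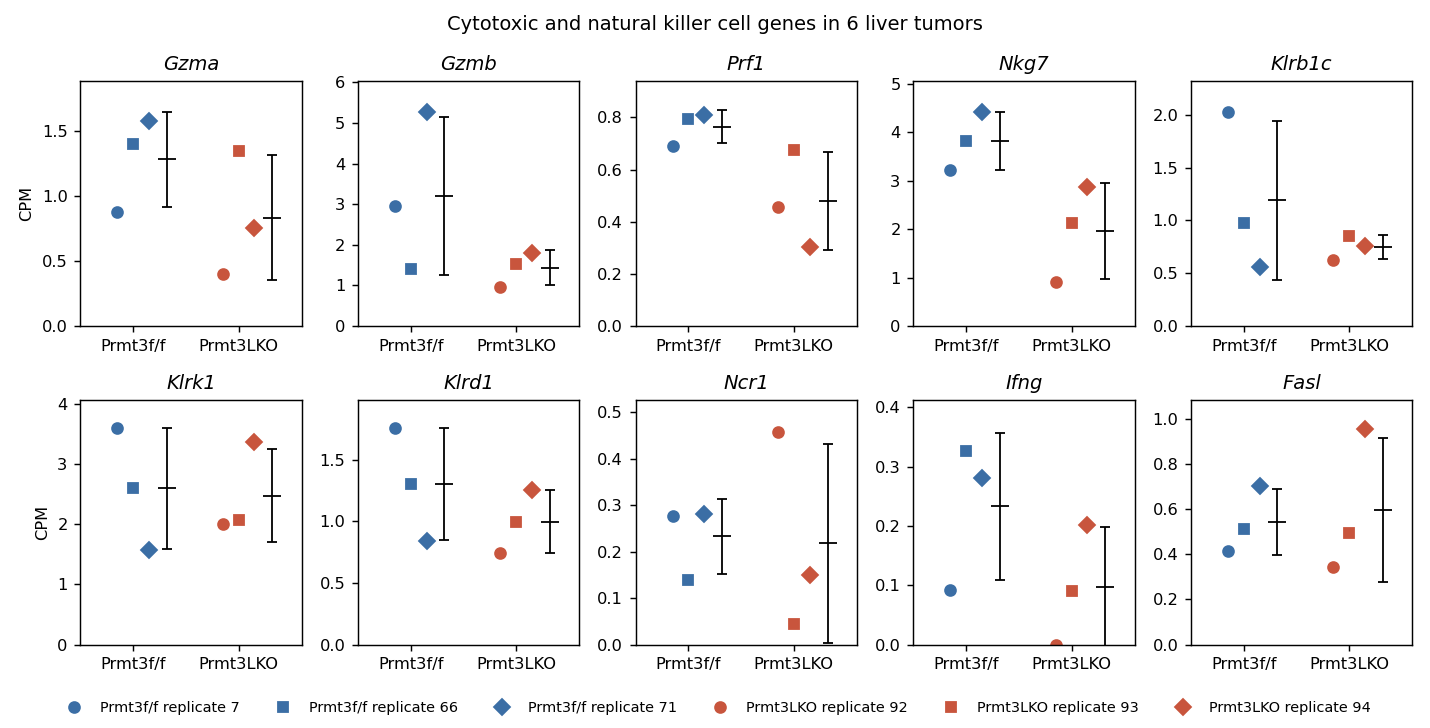
Level of each gene (vertical axis, CPM from 0) in 3 Prmt3f/f tumors (blue) and 3 Prmt3LKO tumors (red), 1 symbol per tumor, with mean and SD as black bars (the lower bar of Ifng in Prmt3LKO tumors runs below 0 and ends at the axis). The symbols of the groups do not overlap for Prf1 and Nkg7, and they overlap for the other 8 genes.

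The granule genes came first. Nkg7 encodes a membrane protein of cytotoxic granules (chr7:43437073-43438249 on GRCm38). It had 70, 82 and 126 counts in Prmt3f/f replicates 7, 66 and 71, which is 3.23, 3.82 and 4.43 CPM. It had 16, 47 and 57 counts in Prmt3LKO replicates 92, 93 and 94, which is 0.914, 2.12 and 2.86 CPM. Every Prmt3LKO tumor lay below every Prmt3f/f tumor, and replicate 92 lay lowest by far. The log2 fold change was -0.95 (SE 0.41), with a 95% interval from -1.90 to -0.0068. By edgeR's quasi-likelihood test the unadjusted p was 0.0487 and the Benjamini-Hochberg adjusted p was 0.756. Without Prmt3LKO replicate 92 the log2 fold change was -0.62, with an unadjusted p of 0.0897, and the groups still did not overlap.

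Gzmb encodes granzyme B, the granzyme that starts caspase-driven death of the target (chr14:56258856-56262260). It had 64, 30 and 150 counts in the Prmt3f/f tumors, or 2.95, 1.40 and 5.27 CPM. It had 17, 34 and 36 counts in the Prmt3LKO tumors, or 0.971, 1.53 and 1.81 CPM. Prmt3f/f replicate 71 stood above all other tumors, while Prmt3f/f replicate 66 lay within the range of the Prmt3LKO tumors. The log2 fold change was -1.16 (SE 0.51), the most negative of the 8 genes tested, with an interval from -2.34 to 0.021. The unadjusted p was 0.0532 and the adjusted p 0.762 by edgeR's quasi-likelihood test. Gzmb depended strongly on Prmt3f/f replicate 71, without which the log2 fold change was -0.59 with an unadjusted p of 0.259. Without Prmt3f/f replicate 66 it was -1.51, with an unadjusted p of 0.00899 (adjusted p = 1.0, edgeR).

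Prf1 encodes perforin (chr10:61297836-61304263). Its counts were 15, 17 and 23 in Prmt3f/f tumors and 8, 15 and 6 in Prmt3LKO tumors. In CPM these were 0.692, 0.793 and 0.808 against 0.457, 0.676 and 0.301. The 3 Prmt3f/f tumors were close together, and the highest Prmt3LKO tumor, replicate 93, came just below the lowest of them. Its log2 fold change was -0.66 (SE 0.45), with an interval from -1.71 to 0.38 and an unadjusted p of 0.180 (adjusted p = 0.890, edgeR).

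Gzma encodes granzyme A, a granzyme abundant in NK cells (chr13:113093825-113100979). It was at 0.876, 1.40 and 1.58 CPM in Prmt3f/f tumors (19, 30 and 45 counts) and at 0.400, 1.35 and 0.753 CPM in Prmt3LKO tumors (7, 30 and 15 counts). The groups overlapped, because Prmt3LKO replicate 93 lay above Prmt3f/f replicate 7 and just below Prmt3f/f replicate 66. For Gzma the log2 fold change was -0.61 (SE 0.50), with an interval from -1.78 to 0.57 and an adjusted p of 0.915 (edgeR). Without replicate 93 it was -1.14, and without replicate 92 it was -0.29. All 4 granule genes were highest in Prmt3f/f replicate 71.

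The receptor genes had another order of tumors. Klrk1, Klrd1 and Klrb1c lie in the NK gene complex on chromosome 6 and were all highest in Prmt3f/f replicate 7. Klrk1 encodes NKG2D, an activating receptor of NK cells and CD8+ T cells (chr6:129610323-129623864). It had 78, 56 and 45 counts in Prmt3f/f tumors (3.60, 2.61 and 1.58 CPM) and 35, 46 and 67 in Prmt3LKO tumors (2.0, 2.07 and 3.37 CPM). The groups overlapped across most of their range, and the lowest tumor was Prmt3f/f replicate 71, which was the highest for the granule genes. Its fitted log2 fold change was -0.061 (SE 0.39), with an interval from -0.96 to 0.84 and an adjusted p of 0.996 (edgeR). That interval leaves room for a change of nearly 2-fold either way, and the sign turned when some single tumors were left out.

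Klrd1 encodes CD94, the partner chain of NKG2 receptors such as NKG2A, though not of NKG2D (chr6:129591782-129598775). It was at 1.75, 1.31 and 0.843 CPM in Prmt3f/f tumors (38, 28 and 24 counts) and at 0.743, 0.992 and 1.26 CPM in Prmt3LKO tumors (13, 22 and 25 counts). The groups overlapped because Prmt3f/f replicate 71 lay within the range of the Prmt3LKO tumors. Prmt3f/f replicate 7 was the highest, and Prmt3f/f replicate 66 came just above the highest Prmt3LKO tumor. In the fit Klrd1 had a log2 fold change of -0.37 (SE 0.42), with an interval from -1.34 to 0.59.

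Klrb1c encodes NK1.1, the surface antigen used to mark NK cells in some mouse strains (chr6:128778485-128789215). It was at 2.03, 0.979 and 0.562 CPM in Prmt3f/f tumors (44, 21 and 16 counts) and at 0.628, 0.857 and 0.753 CPM in Prmt3LKO tumors (11, 19 and 15 counts). Prmt3f/f replicate 7 was again the highest, and Prmt3f/f replicate 71 was the lowest of all 6 tumors. The log2 fold change was -0.65 (SE 0.53; adjusted p = 0.912, edgeR), and without Prmt3f/f replicate 7 it was -0.040. Klrb1c overlaps RP24-127M20.8 on the same strand (chr6:128780285-128826315, 217 counts in all tumors together), and the Klr genes and granzymes have close relatives, so some reads could belong to a neighbor.

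Ncr1 encodes NKp46, an activating receptor that marks NK cells (chr7:4337724-4345164). It had 6, 3 and 8 counts in Prmt3f/f tumors and 8, 1 and 3 counts in Prmt3LKO tumors. The highest level, 0.457 CPM, was in Prmt3LKO replicate 92, the tumor in which 6 of the other 9 genes were lowest. The pooled counts were 17 and 12, a ratio of 0.848 after correction for library size, with a 95% counting interval from 0.370 to 1.88. No difference in Ncr1 was detectable at this depth.

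The last 2 genes encode secreted or surface effectors. Ifng encodes interferon gamma, which NK and T cells release to act on tumor cells and macrophages (chr10:118441047-118445892). It had 2, 7 and 8 counts in Prmt3f/f tumors and 0, 2 and 4 counts in Prmt3LKO tumors. The 0 in Prmt3LKO replicate 92 allows a level of up to 0.171 CPM, the worth of 3 counts, which is above the level measured in Prmt3f/f replicate 7. The groups overlapped, and the ratio of the pooled counts was 0.424 with a 95% counting interval from 0.137 to 1.13. Such intervals cover counting error only and not the spread between tumors.

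Fasl encodes Fas ligand (chr1:161780689-161788495). It was at 0.415, 0.513 and 0.703 CPM in Prmt3f/f tumors (9, 11 and 20 counts) and at 0.343, 0.496 and 0.954 CPM in Prmt3LKO tumors (6, 11 and 19 counts). The lowest and the highest tumor were both Prmt3LKO tumors, replicates 92 and 94. Fitted over all tumors, the log2 fold change was 0.13 (SE 0.52), with an interval from -1.08 to 1.34, and its sign turned without replicate 94. Fasl had the only positive fitted value among the 8 genes tested.

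**Figure D2:**
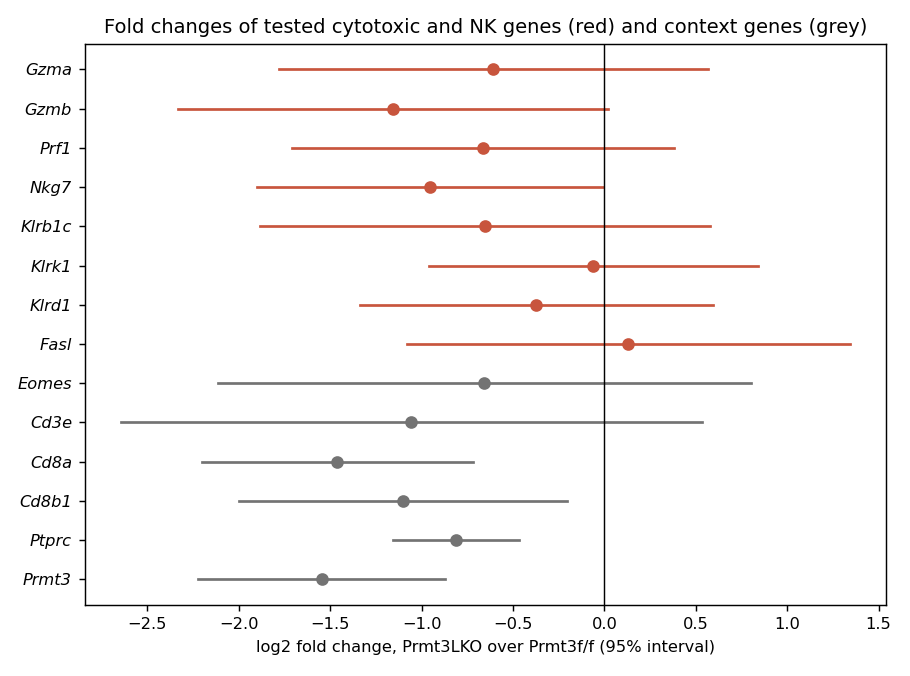
Log2 fold change of Prmt3LKO over Prmt3f/f tumors (horizontal axis) for the 8 cytotoxic and NK genes tested (red) and for 6 context genes (grey). Lines are 95% intervals derived from the F statistic of the edgeR test. The interval of Nkg7 ends just below 0 at -0.0068, the other red intervals cross 0, and those of Cd8a, Cd8b1, Ptprc and Prmt3 lie below 0.

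Counted over all genes, 0 of the 10 genes passed an adjusted p under 0.05 with at least a 2-fold change by edgeR, where the whole table had 0% called (0 of 13892 genes tested). At an unadjusted p under 0.05, Nkg7 was the 1 gene lower, beside 4.37% of all genes tested (607), and 0 were higher, beside 2.2% (305). DESeq2 called 43 genes lower and 9 higher by the adjusted limit, none of them among these 10, and gave Nkg7 and Gzmb unadjusted p-values of 0.0322 and 0.0341. In 2 of the 10 genes (Prf1 and Nkg7) every Prmt3LKO tumor was below every Prmt3f/f tumor, which held for 6.59% of all genes tested. In 0 of the 10 was every Prmt3LKO tumor above, which held for 5.57%. An exact permutation test (two-sided) of log2 CPM returned p = 0.1 for both Prf1 and Nkg7, and 3 tumors against 3 cannot give a smaller value.

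A single tumor weighed on the comparison. Prmt3LKO replicate 92 was the lowest tumor for Gzma, Gzmb, Nkg7, Klrd1, Ifng and Fasl. Summed over the 10 genes, counts were 345, 285 and 465 in Prmt3f/f tumors and 121, 227 and 247 in Prmt3LKO tumors. The sums were 15.9, 13.3 and 16.3 CPM against 6.91, 10.2 and 12.4 CPM. The summed levels did not overlap, with Nkg7, Gzmb and Klrk1 making up most of them. Without replicate 92, 0 of the 10 genes had an unadjusted p under 0.05 by edgeR, and Prf1 and Nkg7 were still the 2 that did not overlap. That number was also 0 without Prmt3f/f replicate 7, Prmt3f/f replicate 71 or Prmt3LKO replicate 93, so it was not particular to replicate 92. The mean log2 CPM of the T cell markers was also lowest in replicate 92, at -0.25 against 0.99 and 0.54 in replicates 93 and 94. Cd3e, a chain of the T cell receptor complex, had 3 counts in replicate 92 against 54 and 32 in the other two.

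The same cells carry other markers, and these gave the comparison its setting. Ptprc encodes CD45, which all white blood cells bear. It was at 40.1 ± 0.784 CPM in Prmt3f/f tumors and 22.8 ± 3.38 CPM in Prmt3LKO tumors (log2 fold change -0.81, SE 0.15; adjusted p = 0.592, edgeR). Cd8a, a chain of the CD8 coreceptor, was at 5.93 ± 0.830 and 2.14 ± 0.783 CPM (log2 fold change -1.46, SE 0.32; adjusted p = 0.592, edgeR). Neither gene overlapped between the groups, and DESeq2 gave Cd8a an adjusted p of 0.0204. Of 16 T cell markers, 8 were lower at an unadjusted p under 0.05 and 11 did not overlap between the groups, with a median log2 fold change of -1.07. Of 20 pan-leukocyte genes, 13 were lower at that limit and 14 did not overlap, with a median of -0.80. Of all genes tested, 4.37% were lower at that limit and 6.59% were lower in every Prmt3LKO tumor, with a median of 0.00043. Summed T cell markers ran from 44.1 to 59.4 CPM in Prmt3f/f tumors and from 17.2 to 37.1 CPM in Prmt3LKO tumors, and summed pan-leukocyte genes from 415 to 457 and from 247 to 312 CPM.

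Markers held mainly by NK cells were counted next. Of 10 such genes, which include Gzma, Klrb1c and Ncr1, 4 had enough counts for a test. None of the 4 passed an unadjusted p under 0.05, and all 4 overlapped between the groups. The 10 genes summed to 5.97 to 9.27 CPM in Prmt3f/f tumors and to 4.64 to 12.7 CPM in Prmt3LKO tumors. In 5 of the 6 tumors, all but Prmt3LKO replicate 93, the largest share of that sum was S1pr5, a receptor for a lipid signal in lymphocyte exit from tissue, at 4.47, 1.96 and 5.16 CPM against 2.51, 0.676 and 7.18 CPM. Eomes, a transcription factor of NK cells, had 16, 17 and 8 counts against 3, 13 and 7. The Ly49 receptor genes Klra4, Klra8 and Klra9 had between 0 and 8 counts in any tumor, and they too were named after their values were seen. Klre1, a partner chain of NK receptors, had 6, 0 and 9 counts in Prmt3f/f tumors and 6, 12 and 24 in Prmt3LKO tumors. In CPM these were 0.277, 0 and 0.316 against 0.343, 0.541 and 1.21. Every Prmt3LKO tumor thus lay above every Prmt3f/f tumor, as for 5.57% of all genes tested, though Klre1 had too few counts for a test. Klrc1, which encodes NKG2A, had 5, 13 and 13 counts against 5, 7 and 44, with most of the Prmt3LKO counts in replicate 94. Both genes were named after their values were seen.

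To compare the 10 genes with the leukocytes around them, each log2 CPM was taken relative to the mean log2 CPM of the 20 pan-leukocyte genes of the same tumor. That mean was itself lower by 0.75 in Prmt3LKO tumors on the log2 scale (exact permutation p = 0.1), so a gene at the same level in both groups would appear higher. Relative to it, 2 of the 10 genes were higher in every Prmt3LKO tumor, beside 55.4% of all genes tested, and 0 were lower, beside 0.302%. The 2 genes were Klrk1 and Klrd1. The relative level of Klrk1 was -2.18, -2.59 and -2.94 in Prmt3f/f tumors and -1.81, -2.11 and -1.62 in Prmt3LKO tumors, a difference of 0.72 (exact permutation p = 0.1). That of Klrd1 was -3.18, -3.54 and -3.78 against -3.14, -3.11 and -2.98, a difference of 0.42 (exact permutation p = 0.1). The Klrd1 groups were only just apart, and they overlapped when a prior count of 0.5 in place of 2 was used, a choice made after seeing the data. For Klrk1 they stayed apart at that setting, with a difference of 0.73.

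The 4 granule genes all overlapped between the groups on this scale. The difference was -0.30 for Nkg7, -0.21 for Gzmb, 0.083 for Gzma and 0.12 for Prf1. For Nkg7 it was 0.00013 without Prmt3LKO replicate 92, and for Gzmb it turned to 0.35 without Prmt3f/f replicate 71 and was -0.74 without Prmt3f/f replicate 66. Differences ran from -0.30 for Nkg7 to 0.80 for Fasl, with a median of 0.21 over the 10 genes, and 7 of the 10 were above 0 (5 to 9 when single tumors were left out). Relative to the mean of the 16 T cell markers, which was lower by 1.06 in Prmt3LKO tumors, 10 of 10 differences were above 0, from 0.0049 for Nkg7 to 1.1 for Fasl. None of the 10 genes was separated between the groups on that scale, where 62.8% of all genes tested were higher in every Prmt3LKO tumor and 0.115% lower. The prior count pulls genes with few counts toward each other in such differences. With a prior count of 0.5, Ifng went from 0.21 to -0.35 relative to the T cell markers, and from -0.10 to -0.70 relative to the pan-leukocyte genes.

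**Figure D3:**
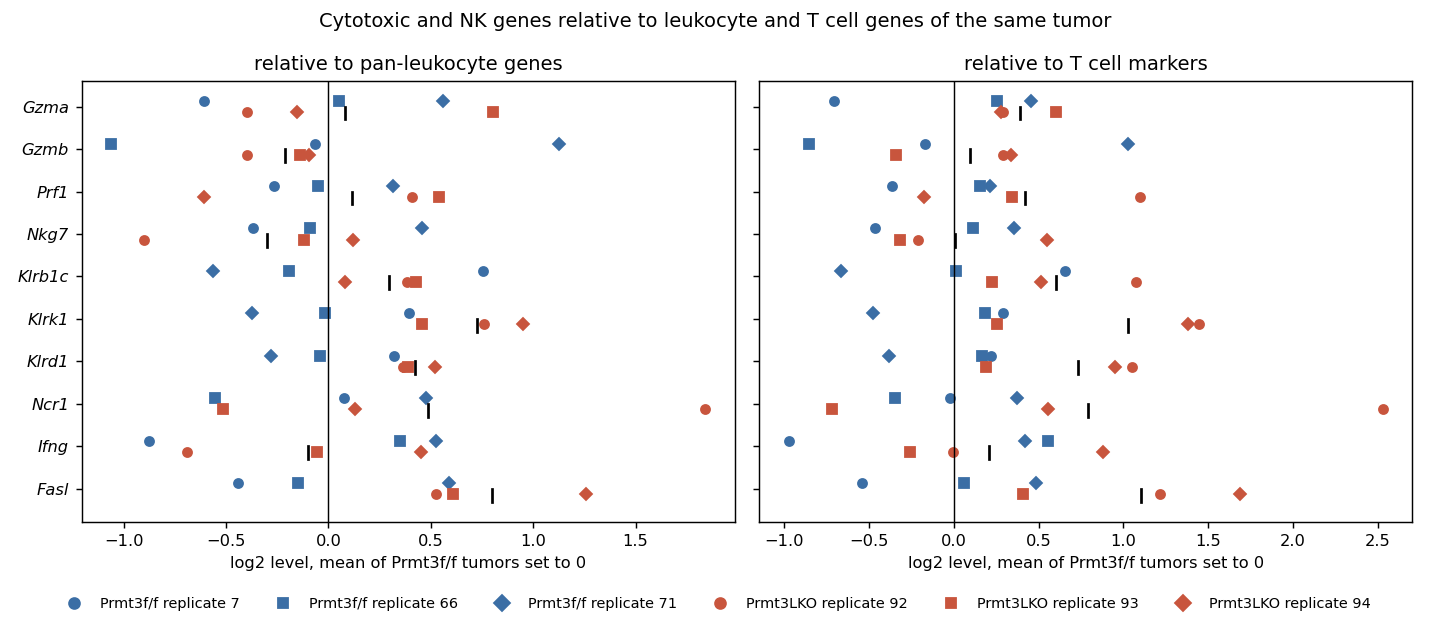
Log2 level of each gene relative to the mean of 20 pan-leukocyte genes (left) or 16 T cell markers (right) of the same tumor, with the mean of the 3 Prmt3f/f tumors (blue) set to 0 and Prmt3LKO tumors in red; black strokes mark the Prmt3LKO mean. On the left the red points of Klrk1 and Klrd1 lie to the right of all blue points, while those of Nkg7 have a mean of -0.30.

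Granzyme B per CD8 chain was also taken as a ratio of counts. There were 0.544, 0.260 and 0.766 Gzmb counts per Cd8a count in Prmt3f/f tumors and 0.778, 0.561 and 0.753 in Prmt3LKO tumors. The ratios overlapped, with a log2 difference of 0.53 (exact permutation p = 0.3). With Cd8b1 in place of Cd8a the difference was 0.20 (exact permutation p = 0.8), and with Cd3e it was 0.68 (exact permutation p = 0.6). Per count of Cd8a, 5 of the 10 genes (Gzma, Nkg7, Klrk1, Klrd1 and Fasl) were higher in every Prmt3LKO tumor, beside 82.9% of all genes tested, and 0 were lower, beside 0.0144%. The largest of these 5 differences was 1.58 for Fasl, followed by 1.5 for Klrk1. Cd8a itself had a log2 fold change of -1.46, so a gene at the same level in both groups would appear higher per count of Cd8a. NK cells and T cells both make these transcripts, and bulk counts do not say which cells a Gzmb count came from.

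Genes that work with the 10 were described by lists written by hand. None of the genes in these lists was called by edgeR at the adjusted limit. Of 12 tested genes for adaptors and signaling behind NK and T cell receptors, 8 were lower at an unadjusted p under 0.05. Without overlap between the groups, 9 were lower, and the median log2 fold change was -0.65. The shares over all genes tested were 4.37% and 6.59%. The most abundant were Tyrobp, which encodes the adaptor DAP12 (24.9 against 15.6 CPM, -0.67), and the kinase genes Syk (22.3 against 17.3 CPM, -0.36) and Fyn (19.3 against 15.7 CPM, -0.30). Tyrobp overlapped between the groups. Syk and Fyn did not, but their unadjusted p-values by edgeR were 0.075 and 0.064. Several of these genes are used by macrophages and T cells as well. Of 33 other NK receptor genes, 13 were tested and 6 were lower at that limit, with a median of -0.75. The most abundant, Klrb1b, was at 35.9 against 32.3 CPM, and the Fc receptor genes Fcgr3 and Fcgr4, which macrophages also express, had log2 fold changes of -0.74 and -0.54. Klrb1b and Fcgr3 overlapped between the groups, and Fcgr4 did not.

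Regulators and signals followed. Of 13 tested transcription factors, 4 were lower at an unadjusted p under 0.05 (median -0.45), among them Ets1 (-1.05) and Irf8 (-0.51). Beside this and the counts below, 4.37% of all genes tested were lower at that limit. The most abundant of the transcription factors, Id2, had a log2 fold change of -0.45 and overlapped between the groups. Tbx21, which encodes T-bet, the driver of the cytotoxic program, was at 1.61, 0.839 and 1.23 CPM in Prmt3f/f tumors and at 0.286, 0.496 and 0.552 CPM in Prmt3LKO tumors. Its groups did not overlap (log2 fold change -1.44, SE 0.46; adjusted p = 0.640, edgeR), and it was named after its values were seen. Of 13 tested cytokine and receptor genes, 4 were lower (median -0.54), including Il15ra, which presents interleukin 15 to NK cells (-0.54). The more abundant Stat5b (-0.049) and Jak3 (-0.16) overlapped between the groups. Of 17 chemokine and homing genes, 5 were lower (median -0.65), including the integrin gene Itgb2 (-0.95). The next most abundant, Itga1 (0.0064) and S1pr1 (-0.064), overlapped between the groups.

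The machinery of granules and of the target cell was counted in the same way. Of 6 other granule genes tested, 1 was lower at an unadjusted p under 0.05 (median -0.54), and the most abundant, Lamp1, which all cells use in lysosomes, had a log2 fold change of 0.063. Of 10 genes for granule release, 1 was lower and 1 higher (median -0.18). Over all genes tested, 4.37% were lower and 2.2% higher at that limit. Gzmc, the granzyme gene next to Gzmb, had 3, 1 and 6 counts in Prmt3f/f tumors and 0 in each Prmt3LKO tumor, and it was named after its values were seen. Among 7 inhibitors of granzymes and death receptors, 9 NK receptor ligands, 8 interferon gamma signaling genes and 12 death receptor genes tested, 0 were lower or higher at that limit. Their medians were -0.19, -0.024, -0.30 and -0.10.

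Markers of other cells that could carry some of the 10 genes were checked in the same way. B cell markers had a median log2 fold change of -0.43 with 0 of 6 tested genes past an unadjusted p under 0.05. Of 8 mast cell markers, 2 were tested (Kit and Hdc), and both were lower at that limit. The mast cell proteases Mcpt4 and Cpa3 had 0 counts in all tumors and 3 counts in 1 tumor, and were named after their values were seen. Markers of plasmacytoid dendritic cells had a median of -0.35, with 1 of 5 lower and 1 higher. Hepatocyte markers had a median of 0.20 with 0 of 12 past the limit, and 3 of 3 tested kidney markers were higher, with a median of 2.17. The shares over all genes tested were 4.37% lower and 2.2% higher. The part of each of these cell types in the values of the 10 genes was not tested.

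**Figure D4:**
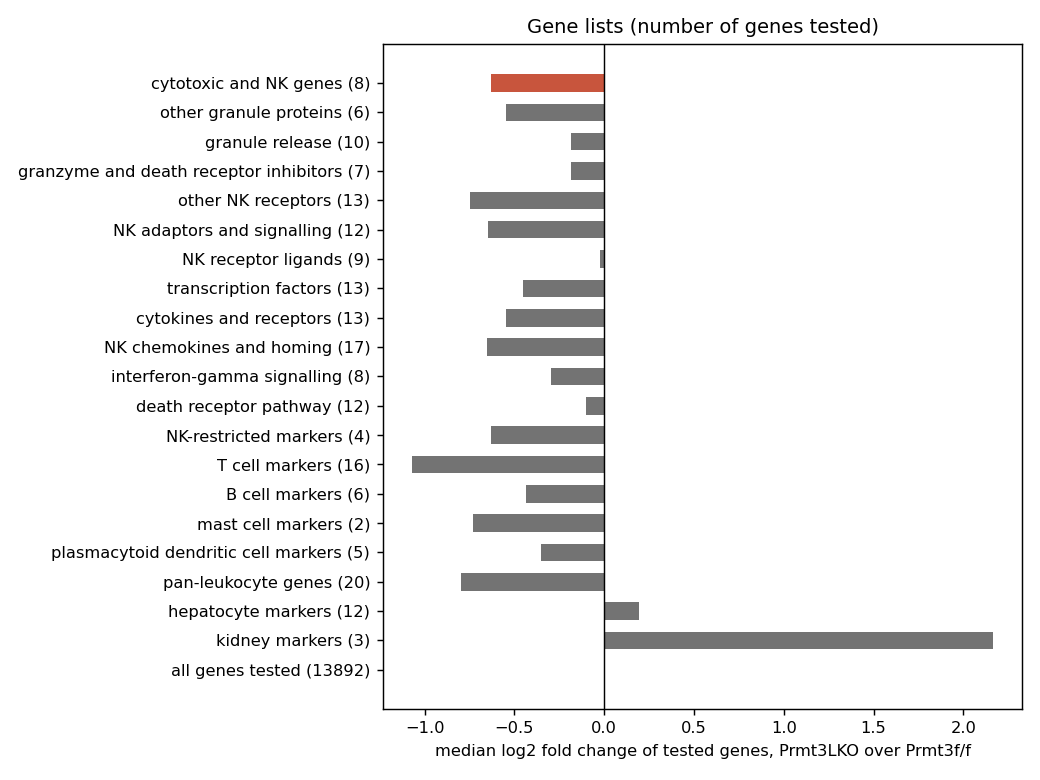
Median log2 fold change (horizontal axis, Prmt3LKO over Prmt3f/f) of the genes tested in each list, with the number tested in parentheses; the 10 cytotoxic and NK genes are in red, of which 8 were tested. T cell markers reach -1.07, pan-leukocyte genes -0.80 and the cytotoxic and NK genes -0.63, while hepatocyte markers lie at 0.20, all genes at 0.00043 and the 3 kidney markers at 2.17.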

How the data were processed

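From Prmt3f/f and Prmt3LKO mice, 3 liver tumors each were profiled by RNA-seq of mRNA. Reads were processed with bcl2fastq 2.19, HISAT2 2.0.4 and StringTie 1.3.0 on GRCm38, per the labels; the counting step and its use of strand were not given in the sources used here. The authors deposited raw counts and FPKM per gene and tumor, and the deposited FPKM were used for levels between genes. All value columns were mapped to tumors, and 0 were left unused. Genes were filtered with filterByExpr (minimum count 10, minimum total 15), leaving 13892, and fitted with TMM scaling and the quasi-likelihood test of edgeR 4.0.16 (R 4.3.3) with Benjamini-Hochberg adjustment. A call needed an adjusted p under 0.05 and at least a 2-fold change. The SE was derived as the size of the log2 fold change over the square root of the F statistic. The 95% intervals used that SE and a t distribution. CPM use TMM library sizes. Log2 CPM per tumor, used for overlap, relative levels and exact permutation tests, use a prior count of 2, and 0.5 was added to counts in ratios. The code was tested on simulated data.

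The 10 genes and the lists were chosen with earlier results of these data known. Genes were named from the 10, Prmt3, 5 context genes and the 3 most abundant tested genes of each list, not all of which are printed. Others are marked as named after their values were seen. DESeq2 1.42.0, limma-voom (limma 3.58.1), other filters and scalings, FPKM, other references and leaving out each tumor were alternatives.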

Additional observations from a re-analysis of the deposited data

How the results depend on the processing

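None of the 10 genes was called under any alternative fit. Genes called over the whole table went from 0 to 43 lower and 9 higher with DESeq2, and to 2 lower without a filter on low counts. The number of the 10 genes lower at an unadjusted p under 0.05, which was 1 (Nkg7), was 2 with DESeq2 and without the filter (Gzmb and Nkg7), and 0 when a mean of 1 CPM was required. It ran from 0 to 1 when single tumors were left out, and without Prmt3f/f replicate 66 the gene was Gzmb. The number below in every Prmt3LKO tumor, 2, ran from 2 to 4 when single tumors were left out, and it was 4 without Prmt3f/f replicate 7 and without Prmt3f/f replicate 71. The log2 fold change of Klrk1 turned to 0.021 with limma-voom, 0.24 without Prmt3f/f replicate 7, 0.071 without Prmt3LKO replicate 92 and 0.056 without Prmt3LKO replicate 93. That of Fasl turned to -0.034 without Prmt3f/f replicate 7 and -0.37 without Prmt3LKO replicate 94. The cause was not tested. Gzma, Gzmb, Prf1, Nkg7, Klrb1c and Klrd1 stayed negative under every fit tried, from -1.51 for Gzmb to -0.040 for Klrb1c. Leaving out single tumors moved Klrk1 between -0.34 and 0.24 and Fasl between -0.37 and 0.40. The number of the 10 genes above 0 relative to pan-leukocyte genes, 7, ran from 5 to 9 when single tumors were left out. No paired analysis was possible because the groups share no replicate numbers. Depth limits what could be detected, since Ncr1 and Ifng never had over 8 counts in a tumor.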
